A study of Mus musculus with 2 samples.

Results

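The slit diaphragm is the junction that bridges the foot processes of podocytes, the epithelial cells that cover the capillaries of the glomerulus. It holds adhesion proteins whose tails are tied by scaffolds and adaptors to the actin cytoskeleton, and variants in many of its genes are known from hereditary nephrotic disease. The 9 genes described here were chosen by symbol from the 32285 genes counted in both libraries, and each symbol matched a row in both. Nphs1 encodes nephrin and Kirrel3 a protein of the nephrin-like (NEPH) family. Magi2 encodes a scaffold and Cd2ap an adaptor of the junction. Ptpro encodes a receptor tyrosine phosphatase of the podocyte surface, Plce1 a phospholipase and Trpc6 a cation channel. Synpo encodes synaptopodin and Actn4 an alpha-actinin, which both bind actin.

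Single-nucleus RNA sequencing (snRNA-seq) was analysed for 2 libraries, each made from nuclei of pooled kidneys of male and female mice. The embryonic kidneys (E18.5) are labelled Mycf/f;Mycnf/f (no Cre) on a mixed background, so that both floxed alleles were present without the recombinase. The postnatal kidneys (P3) are labelled wild type and C57BL/6J, whereas the methods of the study give a mixed background for both ages. With 1 library per age there were no replicates, no test between the ages was possible, and age, genotype, background and library cannot be told apart. After quality limits, 21270 nuclei with a median of 3132.5 unique molecular identifiers (UMIs) were kept at E18.5 and 11765 with a median of 4534 at P3. The libraries shared 69 barcodes, and 16.6% and 17.4% of their nuclei were called doublets. Levels are UMIs summed over the nuclei of a class and scaled to counts per 1e6 UMIs (CPM). Brackets hold 95% intervals, which cover counting error only.

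Nuclei were clustered without the 9 genes, without 42 other genes listed for podocytes and for paralogs of the members, and without mitochondrial genes. Clusters were called podocyte-like from Nebl, Thsd7a and Mapt alone. The podocyte-like class held 697 nuclei in the embryonic library, 3.28% of it (3.04 to 3.53). In the postnatal library it held 193 nuclei, 1.64% (1.42 to 1.89). Nebl had 2207 CPM in these nuclei at E18.5 and 3503 at P3, and its next highest named class had 94.8 CPM at E18.5 and 69.9 at P3. Thsd7a was less exclusive, with 4053 and 5511 CPM in these nuclei and 549 and 524 in endothelium-like nuclei. Mapt had 620 and 847 CPM, followed by proximal tubule-like nuclei at E18.5 with 55.2 and mural-like nuclei at P3 with 128. At E18.5 the class joined a cluster of 512 nuclei, of which 2.34% were called doublets, with clusters of 144 and 41 nuclei, of which 76.4% and 65.9% were. At P3 it joined clusters of 135, 48 and 10 nuclei, and 50% of the smallest were called doublets. The share of doublets therefore differed between the ages, at 21.4% and 6.74% of podocyte-like nuclei, and values for E18.5 are also given from the cluster of 512 nuclei alone, without the doublet-rich clusters.

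The promoters of 3 of the genes concentrated in these nuclei are printed because they can be set beside the levels that follow. RefSeq windows of 300 bases, from 250 before to 50 after a start, were found for 7 of the 9 genes on build GRCm38.p6, with a pair of starts for Magi2. The windows were searched on both strands for GCGTGGG, the core bound by WT1 and EGR factors, and for TAATTA, an element bound by LMX1B and other homeodomain proteins. WT1 and LMX1B are transcription factors of the podocyte. Matches are in capitals, and those of GCGTGGG read CCCACGC where they lie on the other strand. Each sequence is written 5′ to 3′ on the + strand, which is the strand of all 3 genes.
Magi2, upstream start, chr5:19226796-19227095: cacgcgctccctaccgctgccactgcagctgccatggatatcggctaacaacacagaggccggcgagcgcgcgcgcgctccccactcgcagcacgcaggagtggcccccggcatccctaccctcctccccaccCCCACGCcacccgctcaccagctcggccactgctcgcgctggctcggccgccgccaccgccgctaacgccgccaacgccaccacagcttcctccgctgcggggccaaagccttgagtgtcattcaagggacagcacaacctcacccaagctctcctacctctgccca
Magi2, downstream start, chr5:19907268-19907567: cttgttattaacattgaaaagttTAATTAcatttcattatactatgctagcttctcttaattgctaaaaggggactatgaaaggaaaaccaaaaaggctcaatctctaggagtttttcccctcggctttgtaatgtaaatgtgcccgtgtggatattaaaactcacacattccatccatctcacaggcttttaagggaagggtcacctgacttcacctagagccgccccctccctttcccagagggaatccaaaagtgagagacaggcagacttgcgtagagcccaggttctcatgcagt
Ptpro, chr6:137252049-137252348: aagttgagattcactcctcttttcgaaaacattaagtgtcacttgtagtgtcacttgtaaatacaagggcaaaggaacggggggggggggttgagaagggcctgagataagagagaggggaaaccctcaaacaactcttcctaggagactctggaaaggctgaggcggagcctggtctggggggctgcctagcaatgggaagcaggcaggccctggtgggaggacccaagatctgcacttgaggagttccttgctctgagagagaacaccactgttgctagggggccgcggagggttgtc
Nphs1, chr7:30459808-30460107: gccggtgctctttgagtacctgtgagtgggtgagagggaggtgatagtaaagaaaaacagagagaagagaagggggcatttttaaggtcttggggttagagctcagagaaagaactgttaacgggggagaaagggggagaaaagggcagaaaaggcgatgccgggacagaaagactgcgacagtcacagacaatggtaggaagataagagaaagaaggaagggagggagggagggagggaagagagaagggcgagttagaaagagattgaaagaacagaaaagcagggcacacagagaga
Magi2 had 1 match of GCGTGGG at its upstream start and 1 of TAATTA at its downstream start. Actn4 had 1 match of GCGTGGG, and the windows of Ptpro, Nphs1, Plce1, Cd2ap and Trpc6 had 0 matches of either motif. The windows of Nphs1 and Plce1 lie inside the annotated spans of these genes, which begin at 30458315 and 38481109. The sequence before those ends was not searched. Of all 32851 mouse windows of this length, 5.04% held GCGTGGG and 5.29% TAATTA. A match is a stretch of letters and not a measured binding site.

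Of the 9 genes, 7 had their highest level among the 11 named classes in podocyte-like nuclei at E18.5, where 5.01% of all genes with at least 100 UMIs did. At P3, 6 of 9 had it there among 10 named classes, where 7.1% of genes did. The level in podocyte-like nuclei was at least 2 times that in all other nuclei for 6 of 9 genes at E18.5, against 3.89% of 16386 genes, and for 7 of 9 at P3, against 5.68% of 15990 genes. The level in podocyte-like nuclei was 0.5 or less of that in all other nuclei for 0 of 9 genes at E18.5, against 19.9% of genes, and for 1 of 9 at P3, Kirrel3, against 32.7%. Without the doublet-rich clusters, however, 2 genes were at 0.5 or less at E18.5, Kirrel3 with a ratio of 0.147 and Trpc6 with 0.431, the latter from 7 UMIs in podocyte-like nuclei. The other 7 genes had higher levels in the cluster of 512 nuclei than in the whole class. Their ratios to other nuclei were then 29.7 for Nphs1, 50.7 for Magi2, 31.7 for Ptpro, 25.2 for Synpo, 9.17 for Plce1, 2.35 for Actn4 and 2.08 for Cd2ap. The median ratio of the 9 genes was 7.77 at E18.5 and 14.8 at P3, and that of all genes was 0.790 and 0.711. The other nuclei include unnamed clusters of 3025 nuclei at E18.5 and 1211 at P3, of which 80.6% and 90.5% were called doublets. The genes fell into 3 kinds. Nphs1, Magi2, Ptpro and Synpo were at least 20 times higher in podocyte-like nuclei than in all others at both ages, Plce1, Cd2ap and Actn4 were also high in other named clusters, and Kirrel3 and Trpc6 were not raised in podocyte-like nuclei.

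**Figure D1:**
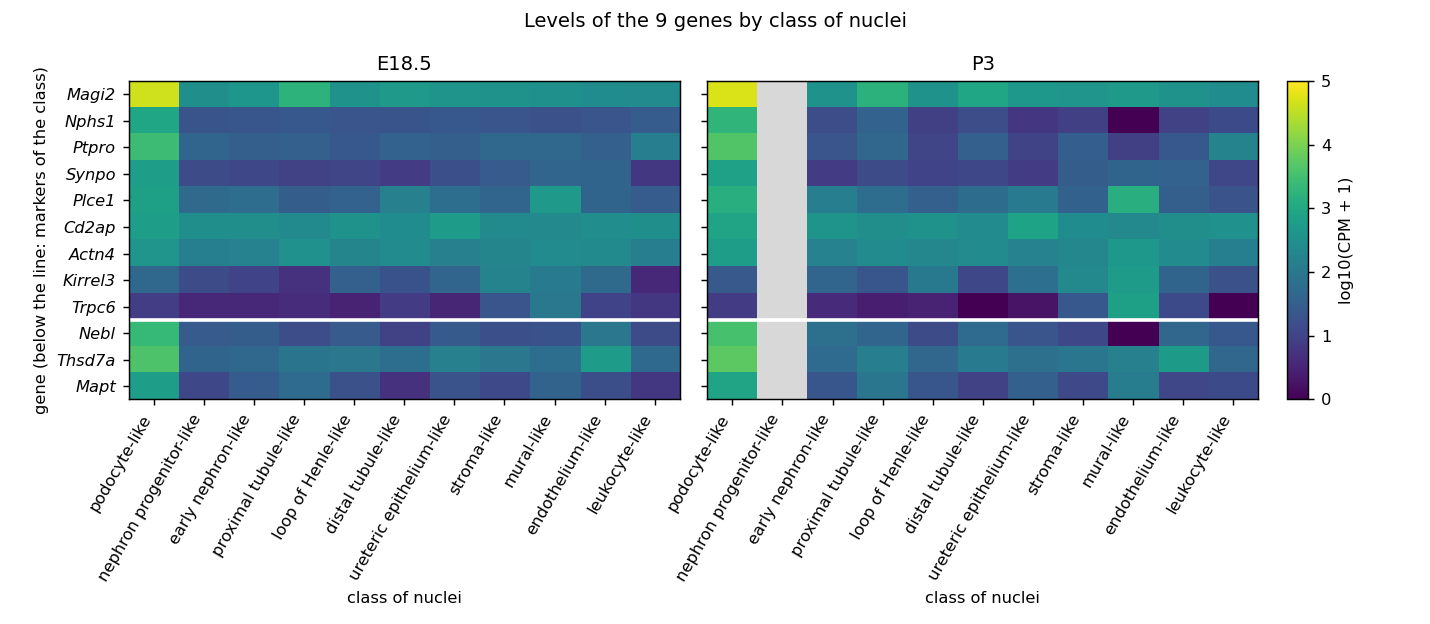
Level of each gene in each named class of nuclei at E18.5 (left) and P3 (right), as log10(CPM + 1), with the markers that define the podocyte-like class below the line and a class that was not found at P3 in gray. Magi2 was the brightest row, with 42936 and 52395 CPM in podocyte-like nuclei, and Trpc6 and Kirrel3 were brighter in mural-like nuclei than in podocyte-like nuclei at both ages.

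Nphs1 (ENSMUSG00000006649, chromosome 7, 30458315 to 30487223 on the mm10 build) is the defining adhesion protein of the junction. It had 2329 UMIs in podocyte-like nuclei at E18.5, or 876 CPM (840.3 to 912), and 1718 at P3, or 1863 CPM (1776 to 1954). The other 10 named classes had 16.1 to 26.9 CPM at E18.5, and the other 9 had 0 to 35.6 at P3. The ratio to all other nuclei was 23.6 (22.4 to 24.98) at E18.5, whereas at P3 it was 68.4 (64.0 to 73.0). After each nucleus was thinned to 1000 UMIs, 57.9% of podocyte-like nuclei (54.1 to 61.6) and 2.69% of endothelium-like nuclei (1.92 to 3.66) had a Nphs1 UMI at E18.5, from median depths of 3348 and 3147 UMIs. At P3 these shares were 78.8% (72.3 to 84.3) and 0.898% (0.388 to 1.76), from median depths of 4282 and 3793. Thinning left out 1 podocyte-like and 11 endothelium-like nuclei at E18.5, and 0 and 2 at P3. Of the endothelium-like nuclei, 19.4% at E18.5 and 17.9% at P3 were called doublets. Unthinned, 90.4% and 6.71% of nuclei had a UMI at E18.5, and 97.4% and 3.14% at P3. In the cluster of 512 nuclei alone, Nphs1 had 1099.8 CPM at E18.5. The low level of Nphs1 outside podocyte-like nuclei was lower at P3 in several classes, and the cause was not tested. Stroma-like nuclei had 20.1 CPM at E18.5 and 7.70 at P3, a ratio of 0.384 (0.307 to 0.477). The ratio was 0.438 (0.290 to 0.646) in endothelium-like, 0.396 (0.228 to 0.654) in loop of Henle-like and 0.228 (0.114 to 0.418) in ureteric epithelium-like nuclei. It was 0.674 (0.452 to 0.995) in early nephron-like nuclei, and the intervals of distal tubule-like and leukocyte-like nuclei held 1. Proximal tubule-like nuclei had 22.9 and 35.6 CPM, a ratio of 1.56 (1.21 to 2.03), but 3.21% and 22.3% of them were called doublets. Without called doublets they had 22.8 and 24.5 CPM, and stroma-like nuclei had 19.9 and 8.05.

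Magi2 (ENSMUSG00000040003, chromosome 5, 19227036 to 20704792), whose product has several PDZ domains, gave the largest number of UMIs of the 9 genes in podocyte-like nuclei. It had 114212 UMIs in podocyte-like nuclei at E18.5, or 42936 CPM (42687 to 43186), and 48308 at P3, or 52395 CPM (51928 to 52864). Thus 4.29% of all UMIs of podocyte-like nuclei at E18.5 and 5.24% at P3 came from this gene. In the cluster of 512 nuclei alone it had 54059 CPM at E18.5. The gene spans 1478 kb, and nuclear RNA holds unspliced transcripts. Levels of different genes can be set side by side per kb of span only as far as intronic reads were counted, which is not given and may differ between the libraries. Per kb, the level of Magi2 in podocyte-like nuclei was 29.1 CPM at E18.5 and 35.5 at P3, and that of Nphs1, which spans 28.9 kb, was 30.3 and 64.5. Proximal tubule-like nuclei were next, with 1707 CPM at E18.5 and 1600 at P3, a ratio of podocyte-like to proximal tubule-like nuclei of 25.2 (24.5 to 25.9) and 32.7 (32.2 to 33.3). Leukocyte-like nuclei were lowest, with 253 and 265 CPM.

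Ptpro (ENSMUSG00000030223, chromosome 6, 137252319 to 137463233) had 2707 CPM (2645 to 2771) in podocyte-like nuclei at E18.5 and 4434 (4299 to 4572) at P3. Leukocyte-like nuclei were next at both ages, with 135 CPM (99.9 to 177) and 171 (138 to 209). Within them at P3, the cluster led by Mrc1 and F13a1 had 197 CPM (156 to 246) in 125 nuclei, and the cluster led by Mir142hg and Ptprc had 106 (61.5 to 169) in 74 nuclei. The other named classes had at most 45.3 CPM at E18.5 and 44.6 at P3. The P3 value was that of proximal tubule-like nuclei, of which 22.3% were called doublets, and it was 13.8 CPM without these. Synpo (ENSMUSG00000043079, chromosome 18) had 643 CPM (613 to 674) in podocyte-like nuclei at E18.5 and 711 CPM (658 to 768) in those at P3. Mural-like nuclei were next for Synpo, with 40.9 and 40.1 CPM, and endothelium-like nuclei had 40.6 and 35.9, levels that could not be ordered by their intervals. In the cluster of 512 nuclei alone, Ptpro had 3318 CPM and Synpo 797. The ratio of podocyte-like to all other nuclei was 25.8 (25.03 to 26.7) and 68.0 (65.1 to 70.9) for Ptpro, and 20.3 (19.1 to 21.6) and 30.6 (27.9 to 33.5) for Synpo. Ranked by this ratio among all genes tested, Magi2, Ptpro, Nphs1 and Synpo were numbers 3, 7, 12 and 17 at E18.5 and 15, 4, 3 and 27 at P3.

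**Figure D2:**
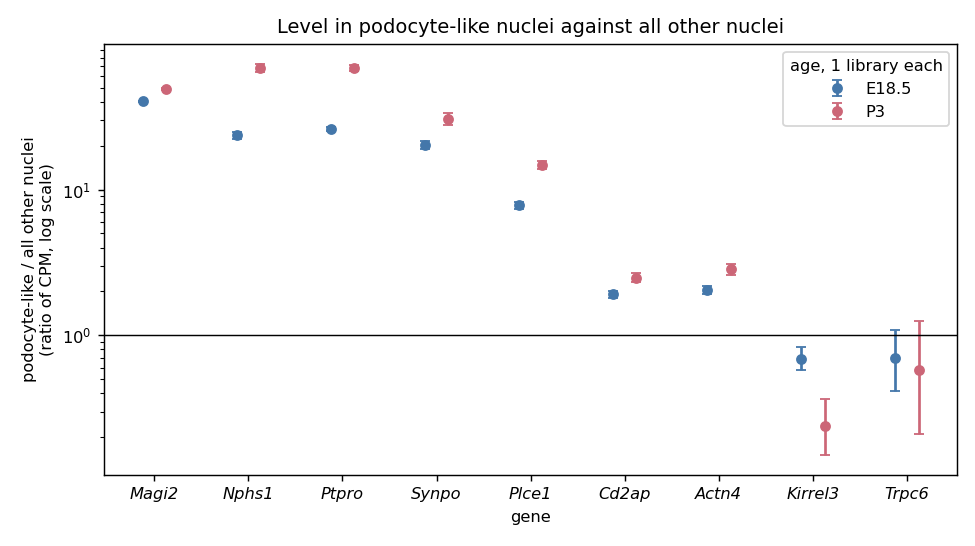
Ratio of the level in podocyte-like nuclei to that in all other nuclei, per gene and age on a log axis, with bars for the 95% counting interval. Nphs1, Magi2, Ptpro and Synpo lay between 20.3 and 68.4, Plce1 between 7.77 and 14.8, Cd2ap and Actn4 between 1.91 and 2.83, and Kirrel3 and Trpc6 below 1.

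Plce1 (ENSMUSG00000024998, chromosome 19, 38481109 to 38785030), whose phospholipase product acts downstream of small GTPases, was shared between podocyte-like and mural-like nuclei. It had 681 CPM (649.8 to 713) in podocyte-like and 475 (424 to 529) in mural-like nuclei at E18.5, a ratio of 1.43 (1.27 to 1.62). At P3 it had 1341 CPM (1267 to 1417) and 1346 (1150 to 1565), a ratio of 0.996 (0.847 to 1.18) that does not order the classes. The stroma-like nuclei had 41.9 and 34.0 CPM. Unnamed clusters led by Upk1b, a gene of the urothelium, had 819 CPM (716 to 932) over 77 nuclei at E18.5 and 680.2 (618 to 746) over 71 nuclei at P3. Plce1 was thus high in 3 kinds of clusters at both ages, and in the podocyte-like cluster of 512 nuclei at E18.5 it had 803 CPM.

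Cd2ap (ENSMUSG00000061665, chromosome 17, 42792951 to 42876665) and Actn4 (ENSMUSG00000054808, chromosome 7, 28893248 to 28962340) were found in every class. Cd2ap had 609 CPM (580.1 to 639.8) in podocyte-like nuclei at E18.5 and 848 (789.7 to 909.7) at P3, and 567 and 783 in ureteric epithelium-like nuclei. The ratios of these classes were 1.08 (1.01 to 1.15) and 1.08 (0.995 to 1.18), so that the classes were not separated at P3. The ureteric epithelium-like clusters led by Slc14a2 exceeded the whole podocyte-like class, with 749 CPM (709 to 791) over 517 nuclei at E18.5 and 1121 (1055 to 1190) over 144 nuclei at P3. The unnamed clusters led by Slc4a9 and Slc26a4, genes of intercalated cells, had 963 CPM (853 to 1084) over 80 nuclei and 778 (695 to 869) over 71. Cd2ap was lowest in mural-like nuclei at both ages, with 226 and 224 CPM. Actn4 had 404 CPM (380.3 to 429) and 604 (555 to 656) in podocyte-like nuclei, followed by proximal tubule-like nuclei at E18.5 with 339.7 CPM and mural-like nuclei at P3 with 457 (346 to 592). In the podocyte-like cluster of 512 nuclei at E18.5, Cd2ap had 664 CPM and Actn4 466. For the whole class, the ratio of Actn4 to that next class was 1.19 (1.09 to 1.30) at E18.5, whereas at P3 it was 1.32 (1.01 to 1.77). In podocyte-like nuclei the ratio to all other nuclei was 1.91 (1.81 to 2.01) and 2.48 (2.31 to 2.67) for Cd2ap, and 2.04 (1.92 to 2.17) and 2.83 (2.60 to 3.08) for Actn4.

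Kirrel3 (ENSMUSG00000032036, chromosome 9, 34485894 to 35036716) was lower in podocyte-like nuclei than in all other nuclei. Podocyte-like nuclei had 126 UMIs at E18.5, or 47.4 CPM (39.5 to 56.4), and 22 at P3, or 23.9 CPM (14.95 to 36.1), with a ratio to all other nuclei of 0.692 (0.575 to 0.826) and 0.241 (0.151 to 0.365). At E18.5, 107 of the 126 UMIs came from the cluster of 144 nuclei of which 76.4% were called doublets, and the cluster of 512 nuclei had 16 UMIs, or 10.1 CPM (5.76 to 16.4). After thinning, 2.59% of podocyte-like nuclei (1.54 to 4.06) and 2.97% of endothelium-like nuclei (2.15 to 3.97) had a Kirrel3 UMI at E18.5. The share was 0.645% (0.210 to 1.499) in proximal tubule-like nuclei and 0.772% (0.458 to 1.22) in nephron progenitor-like nuclei, so it was not alike in all classes. At P3 the podocyte-like and endothelium-like shares were 3.63% (1.47 to 7.33) and 2.58% (1.64 to 3.85), whose intervals overlapped. Without called doublets, podocyte-like nuclei had 20.5 CPM of Kirrel3 at E18.5 and 25.2 at P3, and endothelium-like nuclei had 44.4 and 24.8. Stroma-like nuclei led at E18.5, with 169.5 CPM (163 to 176), and mural-like nuclei at P3, with 577 (451 to 726). Among stroma-like clusters, those with Gria1, Il1rapl2 and Ntng1 among their leading genes were highest at both ages, with 257 CPM (241 to 275) over 1105 nuclei at E18.5 and 450.2 (421 to 480.4) over 484 nuclei at P3. The highest cluster of all held 19 nuclei at E18.5 and was led by Ctnna2, Fam155a and Syt1, with 835 CPM (673 to 1024). Read beside its paralogs, Kirrel3 differed from Kirrel, which encodes NEPH1 and had 221 CPM in podocyte-like nuclei at E18.5 and 372 at P3, or 2.23 (2.05 to 2.42) and 2.81 (2.51 to 3.13) times its level in all other nuclei. Kirrel2 had 4 and 6 UMIs in podocyte-like nuclei.

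Trpc6 (ENSMUSG00000031997, chromosome 9, 8544142 to 8680741) had 784 UMIs in all nuclei at each age and few of them in podocyte-like nuclei. These had 19 UMIs at E18.5, or 7.14 CPM (4.30 to 11.2), and 6 at P3, or 6.51 CPM (2.39 to 14.2). The ratio to all other nuclei was 0.697 (0.417 to 1.10) and 0.578 (0.212 to 1.26), so that neither a higher nor a lower level was detectable in the whole class. In the cluster of 512 nuclei alone, however, Trpc6 had 7 UMIs at E18.5, or 4.41 CPM, against 10.2 CPM in all nuclei outside the class. Among the named classes, podocyte-like nuclei ranked number 4 at both ages, below mural-like, stroma-like and endothelium-like nuclei. The median of the other named classes was 4.33 CPM at E18.5 and 2.05 at P3, and these levels rest on few UMIs. After thinning, 0.575% of podocyte-like nuclei had a Trpc6 UMI at E18.5 and 0.518% at P3, against 0.759% and 1.23% of endothelium-like nuclei, with overlapping intervals at each age. Many endothelium-like nuclei were called doublets. Without called doublets, endothelium-like nuclei had 5.80 CPM of Trpc6 at E18.5 and 8.27 at P3, and podocyte-like nuclei had 4.32 and 7.20. Mural-like nuclei led at both ages, with 67 UMIs or 97.8 CPM (75.8 to 124) at E18.5 and 85 UMIs or 681 CPM (544 to 842) at P3. The mural-like nuclei were 1 cluster of 214 nuclei led by Dkk2 and Dgkb at E18.5 and 1 cluster of 32 nuclei led by Ren1, the renin gene, at P3, so the ages are not compared for them. In the Ren1-led cluster 75% of nuclei had a Trpc6 UMI unthinned and 43.75% (26.4 to 62.3) after thinning. Trpc6 was among the 10 leading genes of this cluster. Stroma-like clusters that shared Apcdd1, Nrxn3, Kcnd2 and Adamts17 among their leading genes had 76.8 CPM (66.4 to 88.3) over 583 nuclei at E18.5 and 96.1 (80.8 to 113) over 216 nuclei at P3.

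**Figure D3:**
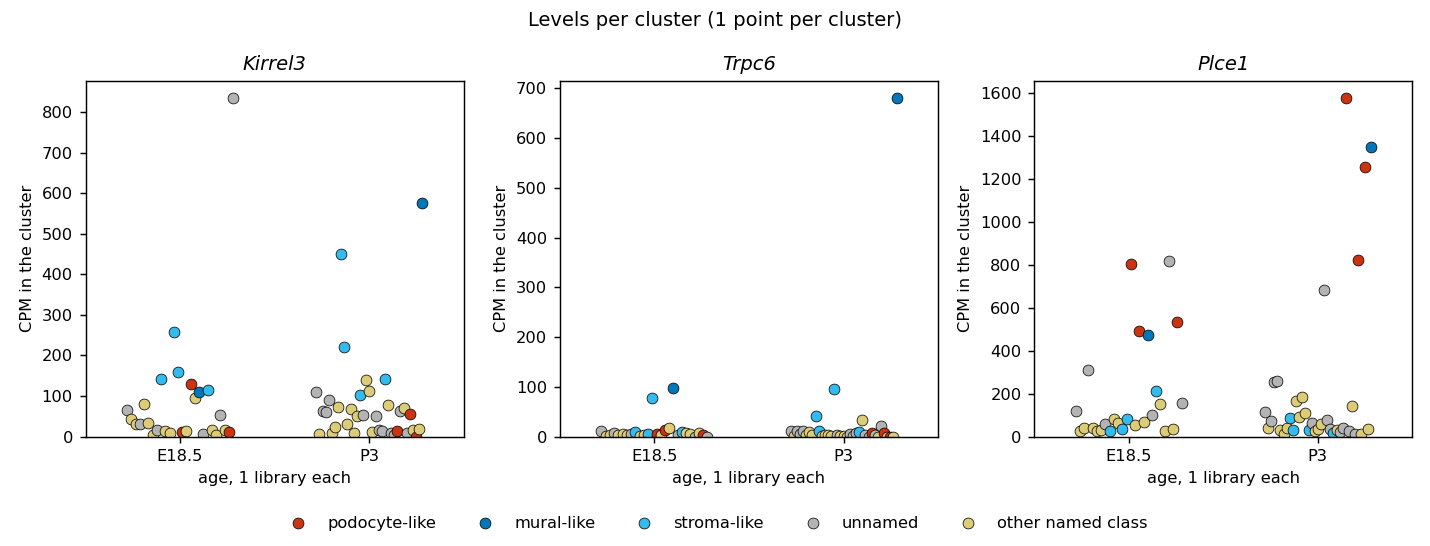
Level of Kirrel3, Trpc6 and Plce1 in every cluster of both libraries, 1 point per cluster, in CPM on linear axes and colored by class. The highest cluster was unnamed for Kirrel3 at E18.5 with 835 CPM and mural-like for Trpc6 at P3 with 681, and the podocyte-like clusters stood at 13.4 CPM or less for Trpc6 and at 490.4 or more for Plce1.

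The 42 other genes were read with the same ratio of podocyte-like to all other nuclei, for the 38 that had at least 100 UMIs in the library, a set that differed between the ages by 1 gene. Of these, 16 were at least 2 times higher in podocyte-like nuclei at E18.5 and 19 at P3, against 3.89% and 5.68% of all genes. Their median ratio was 1.53 and 1.99. Of the 5 transcription factors 5 were past 2-fold at both ages, with median ratios of 5.40 and 10.4. Lmx1b had ratios of 10.0 and 19.0 and Wt1 of 5.40 and 10.4. Among slit diaphragm and junction genes 4 of 6 tested were past 2-fold at both ages. They included Crb2, which encodes a polarity protein, with ratios of 8.28 and 23.5. Of the 6 surface and adhesion genes 3 were past 2-fold at E18.5 and 5 at P3, with Podxl, which encodes podocalyxin, at 9.52 and 35.2. Of the 8 actin genes 3 were past 2-fold at both ages, and Actn1, the paralog of Actn4, was not, with ratios of 0.959 and 0.755. Of the 5 adaptors 1 was past 2-fold at E18.5 and 2 at P3. Fyn, a kinase of the nephrin tail, had ratios of 2.60 and 3.68. Its highest class was nevertheless endothelium-like, with 439 and 666 CPM against 355 and 587 in podocyte-like nuclei. Sh3kbp1, the paralog of Cd2ap, had ratios of 0.812 and 0.637.

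Of the 11 paralogs of the members with at least 100 UMIs in the library at each age, 1 was past 2-fold in podocyte-like nuclei at both ages, which was Kirrel, and 6 were at or below 0.5 at E18.5 and 2 at P3. Of all genes, 3.89% at E18.5 and 5.68% at P3 were past 2-fold, and 19.9% and 32.7% were at or below 0.5. The 2 paralogs at P3 were thus no larger a share than among all genes. Magi1 had ratios of 0.460 and 0.513 and Magi3 of 0.454 and 0.504, against 40.2 and 49.0 for Magi2. Synpo2 had 56.8 CPM in podocyte-like and 344 in stroma-like nuclei at E18.5, the opposite order to Synpo, and 27.1 and 623 at P3. In the largest podocyte-like cluster alone, Synpo2 had 12.6 CPM at E18.5 and 25.3 at P3. Ptprj, a paralog of Ptpro, had ratios of 1.55 and 1.72. Paralogs with fewer UMIs were not counted here, and some had a large part of theirs in podocyte-like nuclei. Trpc7, a paralog of Trpc6, had 11 UMIs in podocyte-like and 43 in all other nuclei at E18.5, a ratio of 7.18 (3.34 to 14.2), whereas at P3 it had 8 and 8, a ratio of 74.98 (24.5 to 229). Kirrel2 had 4 and 33 UMIs at E18.5, a ratio of 3.40 (0.876 to 9.57), and 6 and 6 at P3, a ratio of 74.98 (20.05 to 280.5).

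The clusters also ordered the podocyte-concentrated genes. At each age a cluster had Ndnf among its 3 leading genes, and in it these genes were lower than in the largest podocyte-like cluster. These clusters, called Ndnf-led here, were picked after their values were seen. At E18.5 the cluster had 1053 nuclei, was unnamed, with 1 of the 3 podocyte markers raised, and had Wt1 among its leading genes. At P3 it was the podocyte-like cluster of 48 nuclei, led by Ptpro, Nebl and Ndnf. In the E18.5 cluster Plce1 had 310 CPM, or 38.7% (35.7 to 41.9) of its level in the largest podocyte-like cluster, and Ptpro 484 CPM, or 14.6% (13.8 to 15.4). Nphs1 had 97.2 CPM, or 8.84% (7.86 to 9.91), Synpo 59.9 CPM, or 7.52% (6.48 to 8.69), and Magi2 1483 CPM, or 2.74% (2.67 to 2.82). The level of Plce1 there was thus the nearest to that of the largest podocyte-like cluster among these 5 genes, and that of Magi2 the farthest. In the P3 cluster Ptpro was at 89.1% (82.9 to 95.6) of its level in the largest cluster, Plce1 at 52.1% (44.6 to 60.6), Nphs1 at 47.5% (41.6 to 54.2), Synpo at 27.97% (21.4 to 36.1) and Magi2 at 27.2% (26.4 to 28.1). Magi2 was thus the lowest of the 5 genes at E18.5, and the intervals of Magi2 and Synpo overlapped at P3. Wt1, a podocyte transcription factor, was at 73.0% (69.7 to 76.4) in the E18.5 cluster and 142% (131 to 154) in the P3 cluster. The E18.5 cluster counts among all other nuclei in the ratios above.

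**Figure D4:**
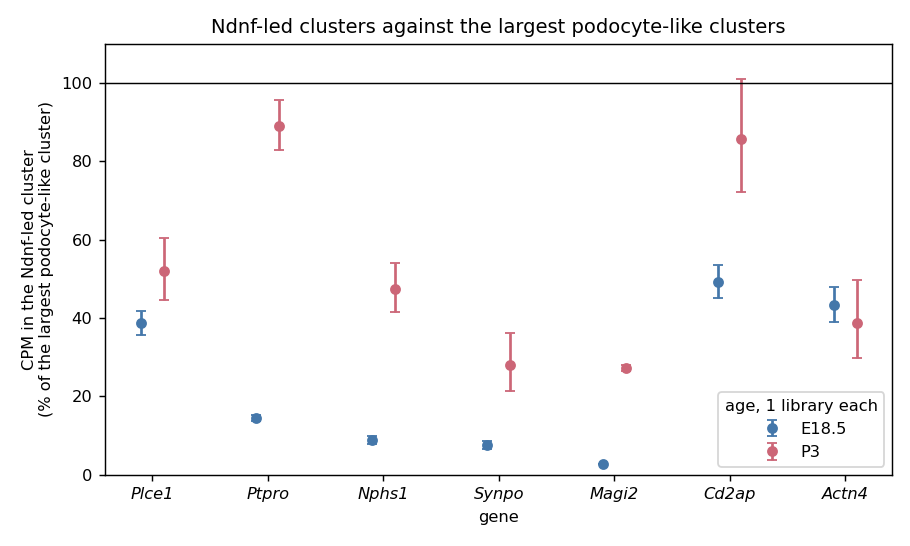
Level in the Ndnf-led cluster as a percentage of the level in the largest podocyte-like cluster of the same library, per gene and age, with bars for the 95% counting interval. Of the 7 genes plotted, Ptpro differed most between the libraries in percentage points, at 14.6% and 89.1%, while Magi2 was at 2.74% and 27.2%. The E18.5 cluster was unnamed and the P3 cluster podocyte-like, and the podocyte marker Nebl, not plotted, was at 15.5% and 95.4%.

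Between the ages, the podocyte-like level was higher at P3 for 7 of the 9 genes by the counting interval of its ratio, against 15.4% of 6057 genes, and lower for 1, Kirrel3, against 27.4%. Of the 33 other listed genes tested, 21 were higher and 3 lower at P3 by the same reading. Their median ratio was 1.37, and 2 were at 0.5 or less. The header of the matrix names Cell Ranger release 7.0.0 for E18.5, which counts intronic reads by default, and 5.0.1 for P3, which does not. The setting used is not given in the sources used here, and its part in these ratios was not tested. Nphs1 had a ratio of P3 to E18.5 of 2.13 (1.998 to 2.27), Plce1 of 1.97 (1.83 to 2.12), Ptpro of 1.64 (1.58 to 1.70), Actn4 of 1.49 (1.35 to 1.66) and Cd2ap of 1.39 (1.28 to 1.52). Magi2 followed with 1.22 (1.21 to 1.23) and Synpo with 1.11 (1.01 to 1.21). Trpc6 had 0.911 (0.298 to 2.37), and Kirrel3 had 0.504 (0.305 to 0.797). The median of the 9 ratios was 1.39. Of the 8 genes with at least 100 UMIs, 1 was past 2-fold upward, Nphs1, against 1.5% of 6057 genes, and 0 were at 0.5 or less, against 11.4%. The median over all 6057 genes was 0.915, and it increased with the span of the gene, from 0.638 among the shortest 1211 genes to 1.12 among the longest 1210. Nphs1 lay in the bin of 15.9 to 33.4 kb, whose median was 0.837. Cd2ap, Synpo and Actn4 lay in that of 60.8 to 118.6 kb, whose median was 1.01. Magi2, Ptpro, Plce1, Kirrel3 and Trpc6 lay in the longest, and of these Kirrel3 and Trpc6 had ratios below 1. The podocyte markers used for the class had ratios of 1.59 for Nebl, 1.36 for Thsd7a and 1.37 for Mapt. Among the listed genes, Podxl and Lmx1b had 1.93 and 1.89, above the median of 1.37 for that list.

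These ratios depended on which nuclei were called podocyte-like, and doublets were more frequent in that class at E18.5. Without the clusters of which 50% or more were called doublets, the ratio was 1.72 for Nphs1, 1.68 for Plce1, 0.995 for Magi2 and 0.919 for Synpo, and that of Kirrel3 turned to 2.57. These sets were unlike: P3 kept the Ndnf-led cluster of 48 nuclei, whereas E18.5 was the cluster of 512 nuclei alone. In the largest cluster of each age, Magi2 had 54059 CPM at E18.5 and 68881 at P3, and Synpo 797 and 936. Nphs1 had 1099.8 and 2245 CPM there, and Plce1 803 and 1576. When podocyte nuclei were instead all nuclei with a UMI of each of the 3 markers, the ratio of Nphs1 was 1.04 and the median of the 9 genes 0.976. Under that definition the number of nuclei was 892 at E18.5 and 347 at P3, and the level of Nphs1 at P3 was 611 CPM in place of 1863. Only for Nphs1 did the ratio stay on the same side of 1 under all definitions, between 1.04 and 2.13. The value of 1.04 is near 1 and is given without an interval, so it does not order the ages.

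**Figure D5:**
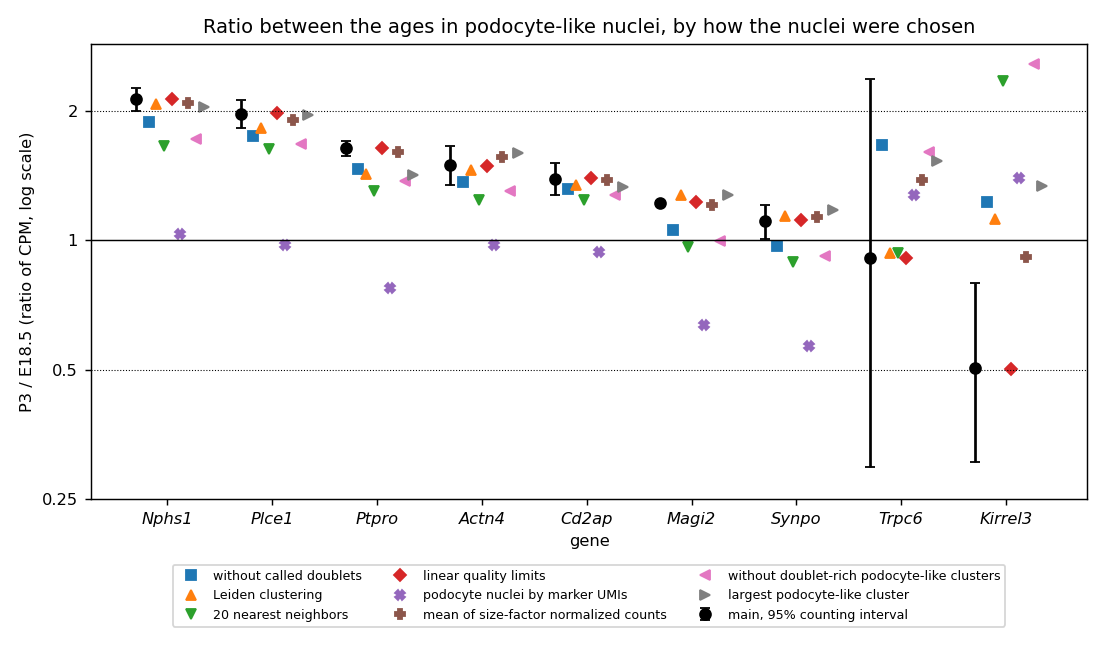
Ratio of P3 to E18.5 in podocyte-like nuclei on a log axis for each gene, as a black point with its 95% counting interval and as colored points for 8 other ways of choosing or scaling the nuclei. Dotted lines mark 2-fold, the solid line marks 1, and the points for nuclei chosen by marker UMIs lay lowest for the first 7 genes, from 1.04 for Nphs1 to 0.569 for Synpo.

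In single podocyte-like nuclei, the median number of the 9 genes detected was 6 at E18.5 and 7 at P3, and at most 8 were found in a nucleus. After thinning, a median of 4 and 5 genes was detected, and 0 nuclei lacked all 9. Magi2 alone was detected in 686 of 696 thinned nuclei at E18.5, so the joint detection of pairs has little room to differ from that of independent genes and is not read.

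The genes whose levels over the 61 clusters of both libraries were most like those of a member were also read, with each library centered on its own mean. For Nphs1 these were Ddn, Rhpn1 and Tdrd5, with Pearson correlations of log2(CPM + 10) of 0.944, 0.935 and 0.934, among 6632 genes. For Magi2 they were Tdrd5, 4921504A21Rik and Rhpn1, for Ptpro Ntng2, Gm29266 and Rhpn1, and for Synpo Tspan2, Ntng2 and Gja3, with correlations from 0.877 to 0.923. For Plce1 they were Zbtb7c, Mtcl1 and Btrc, with 0.680 to 0.735. For Cd2ap they were Wasl, Sh2d4a and Sh3bgrl2, and for Actn4 Wsb2, Uaca and Htra1, with 0.684 to 0.782. Kirrel3 was most like Hectd2, Cacna1c and Gucy1a2, with 0.754 to 0.773. Trpc6 was most like Shc3, Col19a1 and Myh11, the last a smooth muscle myosin and a mural marker of this classification, with 0.840 to 0.849. Among the members, Nphs1 correlated at 0.918 with Magi2 and 0.906 with Ptpro, and at -0.28 with Kirrel3. Clusters of 1 library share depth and composition, so these correlations are descriptions.

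Some of the counted genes overlap. In the GENCODE M21 annotation, Nphs1 overlaps Nphs1os, Actn4 overlaps Capn12 and Gm44699, and Magi2, Ptpro, Kirrel3, Plce1 and Trpc6 each overlap 1 other counted gene. The overlaps of Magi2 with Gm29254, Ptpro with Gm44258 and Actn4 with Gm44699 lie on the same strand, so counting by strand would not separate these genes. The other overlaps are antisense. There, UMIs may be shared as far as the counting did not use strand, which is not given in the sources used here. Cd2ap and Synpo overlap 0 genes.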

How the data were processed

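Nuclei of pooled kidneys were measured in 1 library at E18.5 and 1 at P3. The deposited values are counts: the authors aligned reads and counted UMIs per gene and barcode with Cell Ranger, without normalization. The submitters' notes name release 5.0.1 and build mm10 for both libraries, whereas the header of the E18.5 matrix names 7.0.0 and that of the P3 matrix 5.0.1. Whether intronic reads were counted is not given in the sources used here. Nuclei were kept where log UMIs and log genes were at most 3 median absolute deviations below the median, with no upper limit. The mitochondrial share had an upper limit of 0.602% in the embryonic and 0.575% in the postnatal library. Nuclei that scrublet (scanpy 1.11.5) called doublets stayed in. After normalization by scran 1.30.0 (R 4.3.3), 2000 variable genes, 50 principal components and a graph of 10 neighbors gave Walktrap clusters with bluster 1.12.0 and igraph 2.1.4.

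A cluster was named where at least 3 markers of a class had 10 UMIs or more and reached 2 times their level outside it after 10 CPM was added to each level. Clusters in which another class scored above 0.8 of the best, or had more markers among the 10 leading genes, stayed unnamed, and erythroid-like needed Alas2. Interstitial and mural markers were joined as stroma-like unless at least 5 mural markers were raised. These naming rules were set after the clusters had been seen and left 33.9% of nuclei at E18.5 and 35.7% at P3 unnamed. The members, the lists and the named genes (all members, the 3 podocyte markers, 42 listed genes, the 3 most similar genes per member and leading genes) were chosen with earlier results of these data known. The clusters led by Upk1b, Slc4a9, Slc14a2, Gria1, Apcdd1 and Ctnna2 were picked by their levels.

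Class sums of UMIs were scaled to CPM with exact Poisson intervals, ratios have exact conditional binomial intervals and shares exact binomial ones, computed in Python 3.11.15 (scipy 1.17.1, numpy 2.4.6, pandas 2.3.3). Figures were drawn with matplotlib 3.10.9. With 1 library per age no p-value was computed. The ratio script was tested on simulated counts. GENCODE M21 listed 32158 of the 32285 gene identifiers. Alternatives were doublets removed, Leiden clustering, 20 neighbors, linear quality limits, podocyte nuclei by marker UMIs, size-factor normalized means and other thinning depths. Some of the listed genes and 1 of the motifs searched are not reported here.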

Additional observations from a re-analysis of the deposited data

How the results depend on the processing

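The number of genes with their highest level in podocyte-like nuclei lay between 5 and 7 at E18.5 and between 4 and 7 at P3. The median ratio of podocyte-like to all other nuclei moved at E18.5 to 8.57 with 20 neighbors, 9.87 without called doublets, 10.8 with size-factor normalized means and 6.04 with nuclei chosen by marker UMIs, and at P3 to 16.9 without called doublets, 20.6 with size-factor means and 5.88 with marker UMIs. In alternatives chosen after seeing the data, it was 9.17 at E18.5 both without the doublet-rich clusters and in the largest podocyte-like cluster alone, and 17.3 at P3 in the largest cluster. The median ratio between the ages was 1.24 with 20 neighbors and reversed to 0.976 with marker UMIs. The number of genes past 2-fold between the ages went from 1 to 0 without called doublets, where Nphs1 was at 1.88, and to 0 with marker UMIs.

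Among single genes, the ratio between the ages reversed with marker UMIs to 0.976 for Actn4, 0.938 for Cd2ap, 0.635 for Magi2, 0.977 for Plce1, 0.773 for Ptpro and 0.569 for Synpo. With 20 neighbors it reversed to 0.966 for Magi2 and 0.893 for Synpo, and without called doublets to 0.971 for Synpo. Without doublet-rich clusters it was 0.995 for Magi2 and 0.919 for Synpo. For Kirrel3 it reversed to 2.35 with 20 neighbors, 1.12 with Leiden clustering, 1.40 with marker UMIs, 1.23 without called doublets, 2.57 without doublet-rich clusters and 1.34 in the largest cluster. Trpc6 reversed without called doublets, with 4.32 CPM at E18.5 and 7.20 at P3, from only 8 and 6 UMIs. In the largest cluster it had 4.41 and 6.75 CPM, from 7 and 4 UMIs. Reversed means that the value passed 1. These values are given without intervals, and those near 1 do not order the ages. The cause of these changes was not tested. Linear quality limits changed 0 of these calls. No paired analysis was possible because each age has 1 library. Genes with few UMIs in podocyte-like nuclei, such as Trpc6 with 19 and 6, limit what can be read at this depth.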

Other observations

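An unnamed cluster of 61 nuclei at P3, led by Sox17, Lama3 and Vegfc, had the podocyte markers Nebl at 1802 CPM (1633 to 1984) and Thsd7a at 3047 (2825 to 3281) but 0 UMIs of Mapt. Nphs1 also had 0 UMIs there, with an upper limit of the 95% interval of 16.1 CPM. Magi2 had 183 CPM (132 to 247), Ptpro 30.5 (12.3 to 62.8) and Synpo 100.1 (63.5 to 150.2). Actn4 had 444 CPM (362 to 539), near its level in mural-like nuclei. Sox17 is an endothelial transcription factor, and the cluster was chosen after its values were seen.

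The mural-like cluster of 32 nuclei at P3 had 0 UMIs of Nphs1, with an upper limit of 29.5 CPM, and 0 of Nebl, beside its 1346 CPM of Plce1, 681 of Trpc6 and 577 of Kirrel3. Magi2 was there at 505 CPM (388 to 646) and Ptpro at 8.01 (0.203 to 44.6).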
